A study of Mus musculus with 3 samples.

Results

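Interfollicular basal keratinocytes are the cells of the lowest layer of the epidermis between the hair follicles. Cells chosen to match them were examined in single-cell RNA-seq libraries of mouse dorsal skin. The libraries were made in droplets from the 3' ends of transcripts. The cells were chosen by their own counts. Cells were first kept where 500 or more genes were detected and mitochondrial genes gave no more than 10% of the UMIs (unique molecular identifiers, tags that each mark 1 captured transcript). Of these, cells were taken in which Krt5 and Krt14 together made up at least 2% of the UMIs, Krt1 and Krt10 together stayed below Krt5 and Krt14, and no UMI was found of Lgr5, Lhx2, Sox9, Krt79, Krt25, Krt28, Mki67 or Ptprc. These 8 genes mark follicle, sebaceous duct, dividing and immune cells. The choice gave 148 of 32377 kept cells, with 117 in CON, 4 in UV and 27 in Rux.

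The mice were wild-type C57BL/6J, labelled female and 8 weeks old. CON skin was not irradiated. UV skin was irradiated on alternate days over 12 weeks with UVB (290 to 315 nm) at 3.5 mW/cm2 and UVA (315 to 400 nm) at 0.6 mW/cm2, and Rux skin received the same light followed each time by an ointment with 1.5% ruxolitinib, an inhibitor of the kinases JAK1 and JAK2, with the irradiated skin taken 24 h after the last exposure. CON and UV skin received the vehicle alone, DMSO in an ointment base. Each condition had 1 library, and the number of mice in it was not stated. A difference between conditions therefore had no replicate check, no test was possible, and each interval given below is an exact 95% interval that covers counting error only.

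In all 3 libraries the data went against the labelled sex. The chosen cells held the Y-linked gene Ddx3y at 75.3 CPM in CON, 70.3 in UV and 81.2 in Rux, and not 1 UMI of Xist, the RNA that coats the inactive X chromosome of females, which allows up to 2.17, 70.3 and 6.41 CPM of it in CON, UV and Rux. The libraries shared few cell barcodes, 50 between CON and UV, 28 between CON and Rux and 40 between UV and Rux, and no barcode belonged to a chosen cell in more than 1 library. The CON matrix held 165337289 UMIs, the UV matrix 133972374 and the Rux matrix 131570327. The chosen cells carried 1380883, 42704 and 468051 of these, so that 1 UMI was worth 0.724 CPM (counts of a gene, scaled to a fixed total of 1000000 UMIs over the summed cells) in CON, 23.4 CPM in UV and 2.14 CPM in Rux. Levels in UV were therefore read from few molecules, and the deepest UV cell alone supplied 41.6% of them. The deepest cell supplied 2.53% in CON and 9.56% in Rux.

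The basal layer rests on the basement membrane, to which it is held by hemidesmosomes and integrins, and it renews the epidermis. A cell that leaves it lowers Krt5 and Krt14 and makes Krt1 and Krt10. Cytokine receptors on these cells use JAK kinases to phosphorylate STAT transcription factors, which then raise target genes such as Socs3, whose product shuts the receptors off again.

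The share of kept cells that met the choice was 1.02% (0.846% to 1.22%) in CON, 0.0363% (0.00988% to 0.0929%) in UV and 0.273% (0.18% to 0.397%) in Rux. The choice ran in steps. Cells with Krt5 and Krt14 at 2% and above Krt1 and Krt10 numbered 226 in CON, 60 in UV and 132 in Rux. Of them 51.8% (45.0% to 58.4%) in CON, 6.67% (1.85% to 16.2%) in UV and 20.5% (13.9% to 28.3%) in Rux also lacked all 8 excluded genes. The gene that turned most cells away was Mki67, a marker of dividing cells, in CON, where 56 of 226 cells had a UMI of it, and Sox9, a follicle stem cell factor, in the others, with 43 of 60 UV cells and 78 of 132 Rux cells against 20 of 226 CON cells. Depth moved with this step. The cells turned away had a median of 13520 UMIs in CON, 29431 in UV and 20250 in Rux, and the chosen cells 10787, 12005.5 and 15160. With every cell thinned to 2000 UMIs before the choice, 209 CON, 24 UV and 67 Rux cells met it. The order of the libraries remained. At 1% in place of 2%, 274, 9 and 35 cells met the choice. Without cells that had any UMI of further follicle genes, 14, 1 and 2 cells were left.

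**Figure D1:**
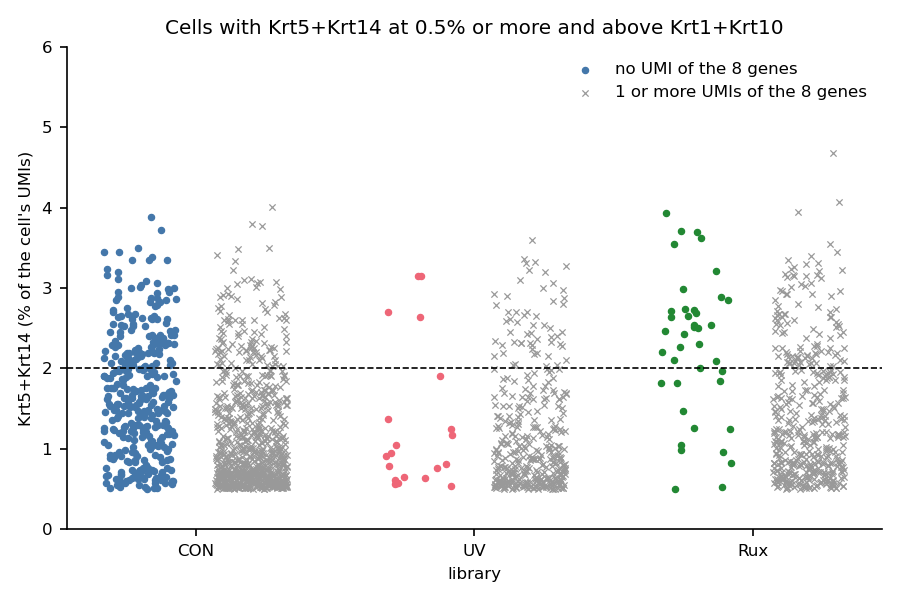
Krt5 and Krt14 together as a percent of the UMIs of each cell (y axis) in the 3 libraries (x axis), for cells at 0.5% or more and above Krt1 and Krt10. Filled points lack all 8 excluded genes, crosses have at least 1 UMI of them, and the dashed line is the threshold of 2%, above which 117 CON, 4 UV and 27 Rux filled points lie.

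The lowest chosen cell had 2.02% in CON, 2.64% in UV and 2.01% in Rux, and the highest one left out for this reason had 2.00%, 1.90% and 1.97%. Krt15 was at 2349 CPM in the 34 CON cells just inside and at 2398 CPM in the 35 just outside, and at 1423 and 263 CPM in the 4 Rux cells on each side.

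Krt5 and Krt14 were set by the rule. Of the basal markers it did not use, Krt15 was at 2157 CPM in CON, 585 in UV and 699 in Rux, Col17a1 at 1758, 1007 and 1423 CPM, and Itga6 at 758, 866 and 534 CPM. The shallowest UV cell, with 910 UMIs, had no UMI of these 3. The 5 basal markers Krt14, Krt5, Krt15, Col17a1 and Itga6 summed to 29956 CPM in CON, 31988 in UV and 30403 in Rux, led by Krt14, of which the rule itself used Krt14 and Krt5. In cells taken for being rich in collagen transcripts and poor in Krt5 and Krt14, a choice that itself sets part of the sum, Krt15 was at 29.9, 14.3 and 13.9 CPM, Col17a1 at 12.9, 9.27 and 6.72 CPM, and Itga6 at 16.4, 10.0 and 5.16 CPM. Fibroblast markers, led by Dcn, summed to 282, 258 and 259 CPM in the chosen cells against 79441, 52888 and 50736 CPM in the collagen-rich cells. Suprabasal markers, led by Krt1 in CON and UV and Krt10 in Rux, which the rule capped, summed to 1890, 2576 and 4059 CPM, and Lor and Ivl, which belong to the upper layers, were at 0 in UV. By group of cells, as clustered below, this sum ran from 394 to 4856 CPM, so that some of the cells chosen as basal carried suprabasal genes. Infundibulum markers summed to 513, 258 and 408 CPM, led by Krt17 in CON and UV and by Plet1 in Rux. Bulge markers summed to 243, 328 and 276 CPM with Krt24 at 0 in every library. Macrophage markers (26.1, 0 and 25.6 CPM), T cell markers (26.1, 0 and 40.6 CPM) and melanocyte markers (42.7, 46.8 and 23.5 CPM) stayed low. Schwann cell markers summed to 46.3, 0 and 2.14 CPM.

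Levels were summed over the chosen cells of a library, and a gene counted as higher or lower when 2 libraries differed at least 2-fold, a rule of size and not a test. In UV over CON, 24.4% of 7476 genes were higher and 15.8% lower. In Rux over UV, 20.2% of 6128 genes were higher and 15.4% lower. In Rux over CON, which compares 27 with 117 cells, 6.46% of 7581 genes were higher and 5.16% lower. A gene was compared when it averaged 10 CPM over the 3 libraries, so that some past 2-fold were compared only through the library in which they were high, and these had to differ. They were 278 of the 1824 higher and 201 of the 1182 lower genes in UV over CON, 211 of 1235 and 0 of 942 in Rux over UV, and 113 of 490 and 83 of 391 in Rux over CON. Of the 1824 genes higher in UV than in CON, 1015 had at most 2 UMIs in UV. The 3 comparisons share libraries and are not independent of each other. UV rests on 4 cells, and 20.9% of the genes compared with CON had no UMI there. At a minimum of 50 CPM the balance in Rux over UV turned, with 317 genes higher and 497 lower. With the choice on thinned cells, 64 of 1228 higher and 36 of 939 lower genes stayed so in Rux over UV. It was 221 of 1584 and 170 of 1180 in UV over CON, and 185 of 451 and 124 of 336 in Rux over CON. The split also depended on scaling. Of the genes past 2-fold in UV over CON 60.7% were higher here and 42.9% after median-of-ratios scaling, and in Rux over UV 56.7% and 73.1%. That scaling moved the median gene by −0.29 in UV over CON and by 0.27 in Rux over UV on the log2 scale, and by −0.03 in Rux over CON.

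Some genes of the JAK-STAT pathway were lower in Rux than in CON, among receptors, STATs and targets. Among the targets and feedback genes of the pathway, 3 of 9 compared genes were lower in Rux than in CON (5.16% of all genes were) and none was higher, with a median log2 ratio of −0.39 against 0.03 over all genes. In Rux over UV 6 of these 9 were lower (15.4% of all genes), with a median of −1.43 against −0.08. Socs3 (ENSMUSG00000053113, chr11:117966079-117970047, minus strand, GRCm38 with GENCODE M21 like all gene positions here), the feedback inhibitor of cytokine receptors, had 462 UMIs in CON, 22 in UV and 34 in Rux (335, 515 and 72.6 CPM). The Rux level lay below both others, with a log2 ratio of −2.18 (−2.75 to −1.70) over CON and −2.84 (−3.64 to −1.98) over UV. The 4 UV cells held 11, 4, 7 and 0 UMIs, so that UV is read from 3 cells, and its ratio over CON was 0.65 in these cells but −0.53 in the 24 UV cells of the thinned choice. In single cells the median was 200.3 CPM in CON, 460 CPM in UV and 42.3 CPM in Rux, and 4 of 27 Rux cells lay above the CON median. Irf1 (ENSMUSG00000018899, chr11:53770014-53778374, plus strand), a transcription factor raised by interferon, had 222 UMIs in CON, 11 in UV and 16 in Rux (161, 258 and 34.2 CPM). Its log2 ratio was −2.19 (−3.07 to −1.50) in Rux over CON and −2.93 in Rux over UV, the latter from 11 UMIs in UV and −1.53 in the thinned choice, and 3 of 27 Rux cells lay above the CON median. Cebpb, a transcription factor downstream of cytokine signals, was at 247 CPM in CON, 234 in UV and 119.6 in Rux, a log2 ratio of −1.03 in Rux over CON. That ratio came as near 0 as −0.73 in 11 alternatives, under 2-fold. Pim1, a kinase also raised by STATs, went the other way with 92.0 CPM in CON, 258 in UV and 175 in Rux, short of 2-fold at 0.93 over CON. Bcl3, a nuclear partner of NF-kappaB, had 40 UMIs in CON, 2 in UV and 8 in Rux (29.0, 46.8 and 17.1 CPM).

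The promoters of Socs3 and Irf1 are shown because both genes were lower in Rux and both hold the letters that STAT proteins are known to bind. The 250 bases before the RefSeq start of each gene (GRCm38.p6) were taken from RefSeq and are written 5' to 3' on the strand of the gene, chr11:117969367-117969616 on the minus strand for Socs3 and chr11:53769764-53770013 on the plus strand for Irf1. The RefSeq start of Socs3 lies inside the longer GENCODE span given above. Capitals mark TTCNNNGAA, which reads the same on both strands.
Socs3: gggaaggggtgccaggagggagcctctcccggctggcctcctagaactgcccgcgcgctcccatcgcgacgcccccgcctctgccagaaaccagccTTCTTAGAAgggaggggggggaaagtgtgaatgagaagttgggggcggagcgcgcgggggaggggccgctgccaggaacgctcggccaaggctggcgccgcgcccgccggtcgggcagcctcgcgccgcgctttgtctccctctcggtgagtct
Irf1: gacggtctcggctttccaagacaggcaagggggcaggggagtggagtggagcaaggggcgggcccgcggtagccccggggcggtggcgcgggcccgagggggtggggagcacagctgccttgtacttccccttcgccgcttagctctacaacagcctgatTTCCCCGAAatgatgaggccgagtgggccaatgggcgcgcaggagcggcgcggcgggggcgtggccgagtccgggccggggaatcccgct
The motif begins 154 bases before the start of Socs3 and 90 bases before that of Irf1. It occurs in 2306 of 32851 mouse promoters of this length (7.02%), and among the 9 pathway targets with a promoter in the table only Socs3 and Irf1 hold it. These matches describe letters, and binding was not measured here.

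Of the 20 kinases, STATs and receptors compared, 7 were lower in Rux than in CON (5.16% of all genes were) and none was higher, with a median of −0.43 against 0.03 over all genes. In Rux over UV 4 of 14 were lower and 1 higher (15.4% and 20.2% of all genes). The median there was −0.02 against −0.08 over all genes, so that this list as a whole did not lie lower in Rux than in UV. At a minimum of 50 CPM 4 were lower. Stat3 (ENSMUSG00000004040, chr11:100885098-100939540, minus strand), the STAT used by the interleukin-6 family, had 558 UMIs in CON, 28 in UV and 72 in Rux (404, 656 and 154 CPM). The log2 ratio was −1.38 (−1.77 to −1.04) in Rux over CON and −2.11 in Rux over UV, and 1 of 27 Rux cells lay above the CON median. In the thinned choice Rux over UV was −1.27, and UV over CON was −0.021 in place of 0.72. Stat5b had 35 UMIs in CON, 1 in UV and 2 in Rux (25.3, 23.4 and 4.27 CPM), and its ratio of −2.27 (−5.67 to −0.61) rests on few UMIs. Receptors past 2-fold lower in Rux included Ifngr1, for interferon-gamma, and Il20ra, for the interleukin-20 family. Ifngr1 had 204 UMIs in CON, 1 in UV and 28 in Rux (148, 23.4 and 59.8 CPM), with −1.28 (−1.93 to −0.73) in Rux over CON. Il13ra1 was at 226 CPM in CON, 164 in UV and 96.1 in Rux (−1.22 over CON), and Il4ra, which pairs with it, had 39, 3 and 6 UMIs (−1.04, but as near 0 as −0.036 in 11 alternatives). Il20ra had 143 UMIs in CON, 1 in UV and 9 in Rux (104, 23.4 and 19.2 CPM), with −2.36 (−3.59 to −1.46) over CON. Jak1, a target of the drug, differed less, with 191 CPM in CON, 445 in UV and 156 in Rux and −0.29 in Rux over CON. Il6st, the shared receptor of the interleukin-6 family, was at 66.6 CPM in CON, 70.3 in UV and 36.3 in Rux (−0.84). In UV over CON, 6 of these 20 genes were higher and 4 lower, and 3 of the 9 targets were higher and none lower (24.4% and 15.8% of all genes), both read from 4 cells. Of the 6 higher, 3 were compared only through UV.

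**Figure D2:**
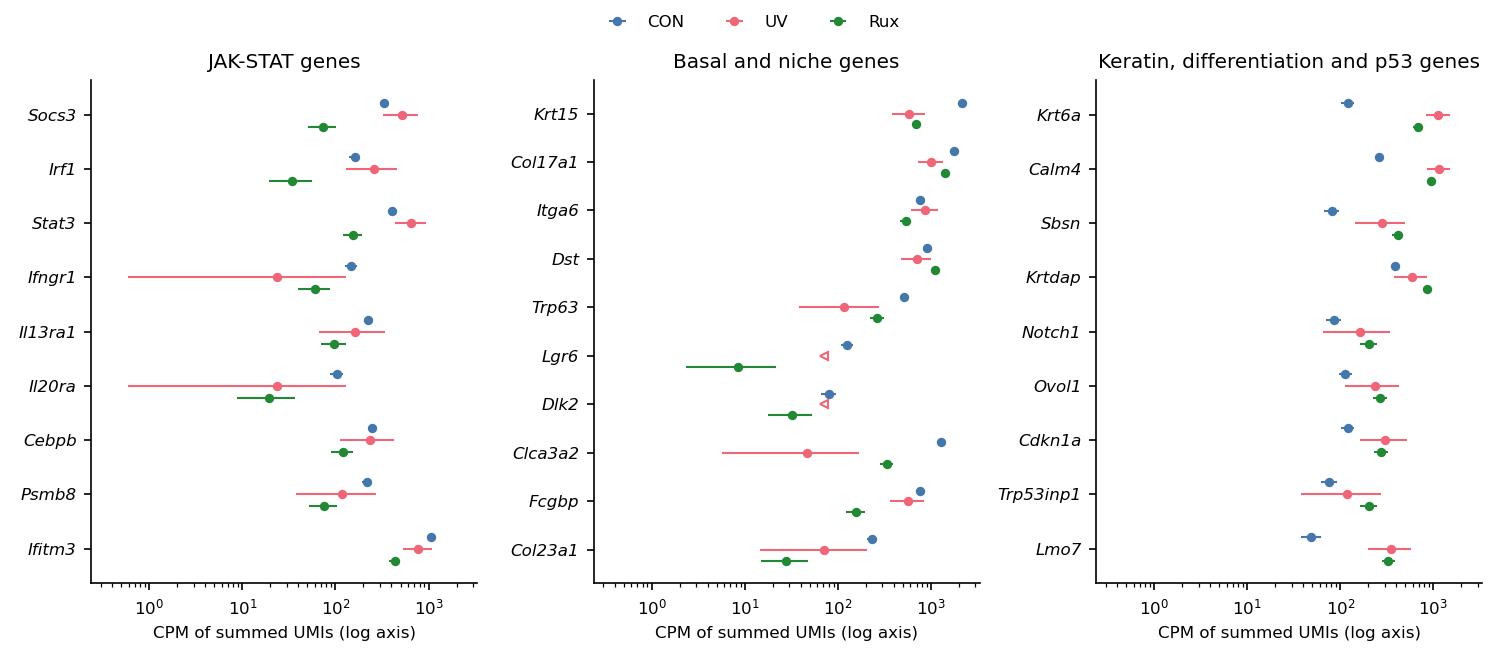
Level of each gene in the summed chosen cells of CON, UV and Rux (x axis, CPM, log axis), for JAK-STAT genes, basal genes, and keratin, differentiation and p53 genes. Bars are exact 95% Poisson intervals, and open triangles mark genes with no UMI in UV at the 3-UMI floor of 70.3 CPM. In the first panel Rux lies left of CON for the genes drawn, a selection that leaves out Pim1, whose ratio of Rux over CON was 0.93.

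Interferon-stimulated and antigen presentation genes were lower in Rux than in CON for 6 of 15 compared genes and higher for 1 (Cd274, with 14 UMIs in each of CON and Rux, or 10.1 and 29.9 CPM), with a median of −0.36, where 5.16% of all genes were lower and 6.46% higher. In Rux over UV 2 of 13 were lower and 2 higher (15.4% and 20.2% of all genes), with a median of −0.21 against −0.08. Ifitm3, a membrane protein that restricts virus entry, had 1461 UMIs in CON, 33 in UV and 202 in Rux (1058, 773 and 432 CPM), a log2 ratio of −1.29 (−1.51 to −1.08) in Rux over CON, and 1 of 27 Rux cells lay above the CON median. The immunoproteasome subunits Psmb8 (217 CPM in CON, 117 in UV and 74.8 in Rux) and Psmb9 (84.7 CPM in CON, 141 in UV and 38.5 in Rux) had ratios of −1.52 and −1.11. Tapbp, which loads peptides onto class I molecules, was at 98.5 CPM in CON, 70.3 in UV and 34.2 in Rux (−1.49). Over the 11 alternatives the ratio came as near 0 as −0.36 for Psmb9, −0.80 for Tapbp and 0.42 for Cd274, all under 2-fold. Cd274 was compared only through Rux, and of the 6 lower genes Irf9 only through CON. Irf9, a transcription factor of the interferon response, had 39 UMIs in CON, 0 in UV and 3 in Rux, a ratio of −1.94 (−4.48 to −0.49) in Rux over CON. Irgm1, an interferon-induced GTPase, had 20 UMIs in CON, 1 in UV and 0 in Rux, at least 2.26-fold lower in Rux than in CON against a floor of 3 UMIs in the summed cells. The class I genes themselves differed little. B2m was at 1263 CPM in CON, 1546 in UV and 1312 in Rux (0.06 in Rux over CON), H2-K1 at 878 CPM in CON, 726 in UV and 749.9 in Rux (−0.23) and H2-D1 at 904 CPM in CON, 1007 in UV and 703 in Rux (−0.36).

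Basal identity genes split. Of 6 hemidesmosome genes 0 passed 2-fold in Rux over CON, where 6.46% of all genes were higher and 5.16% lower, and 2 were lower in UV than in CON (15.8% of all genes were), with a median of −0.74, or −0.52 with genes without a UMI at their bound, against 0.19 over all genes. Col17a1, the transmembrane collagen of the hemidesmosome, was at 1758 CPM in CON, 1007 in UV and 1423 in Rux. Itga6 was at 758 CPM in CON, 866 in UV and 534 in Rux, and its partner Itgb4 at 244 CPM in CON, 141 in UV and 226 in Rux. The plakin linkers Dst and Plec had ratios of 0.29 and −0.31 in Rux over CON. Of 8 basement membrane genes 1 was lower, and of 12 desmosome and adherens junction genes none passed 2-fold, Dsp being at 1055 CPM in CON, 679 in UV and 1231 in Rux. Krt15 (ENSMUSG00000054146, chr11:100131758-100135928, minus strand), a keratin of quiescent basal cells, had 2978 UMIs in CON, 25 in UV and 327 in Rux (2157, 585 and 699 CPM). The log2 ratio was −1.62 (−1.80 to −1.46) in Rux over CON, the UV cells held 10, 0, 15 and 0 UMIs, and 5 of 27 Rux cells lay above the CON median. Trp63, the master regulator of stratified epithelium, was at 519 CPM in CON, 117 in UV and 265 in Rux, with −0.96 in Rux over CON.

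Among 16 basal transcription factor and stem cell genes, 4 were higher and 3 lower in Rux than in CON (6.46% and 5.16% of all genes), with a median of 0.20. Of these, Grhl3 was compared only through Rux and Lgr6 only through CON. Lgr6 (ENSMUSG00000042793, chr1:134983301-135105276, minus strand), a receptor that marks epidermal and isthmus stem cells, had 173 UMIs in CON, 0 in UV and 4 in Rux (125, 0 and 8.55 CPM). Its log2 ratio of −3.71 (−5.77 to −2.49) over CON was the lowest of the group, and UV was at least 1.78-fold lower than CON. The collagen-rich cells had 6.52, 3.62 and 3.80 CPM of Lgr6, against 8.55 CPM in the chosen Rux cells. Dlk2, a Delta-like protein, had 110, 0 and 15 UMIs (−1.27 in Rux over CON), and Id1, a target of BMP signalling, 305, 27 and 51 UMIs (−1.01). The integrin Itga3, which binds laminin, was at 142 CPM in CON, 46.8 in UV and 36.3 in Rux (−1.93). Clca3a2, of the CLCA family, had the lowest ratio in UV over CON among genes with at least 50 CPM and 50 UMIs, with 1767 UMIs in CON, 2 in UV and 156 in Rux (1280, 46.8 and 333 CPM) and a ratio of −4.45 (−7.82 to −2.92), or −2.82 in the thinned choice, and it was −1.94 in Rux over CON. Fcgbp, a mucin-like secreted protein, was at 755 CPM in CON, 562 in UV and 156 in Rux (−2.27 in Rux over CON). Col23a1, a transmembrane collagen named here after its values were seen, was at 231 CPM in CON, 70.3 in UV and 27.8 in Rux, a ratio of −3.00 (−3.98 to −2.26) in Rux over CON. Defb6, a beta-defensin, had 56, 0 and 3 UMIs, a ratio of −2.45 (−4.98 to −1.04) in Rux over CON. Defb6 was compared only through CON, so that it had to differ.

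The stress keratins did not move together. Krt6a (ENSMUSG00000058354, chr15:101689910-101694307, minus strand), a keratin of activated epidermis, had 165 UMIs in CON, 48 in UV and 317 in Rux (119, 1124 and 677 CPM). It was higher in both irradiated libraries, with 3.24 (2.74 to 3.71) in UV over CON and 2.50 (2.23 to 2.78) in Rux over CON, and the UV cells held 10, 20, 18 and 0 UMIs. In single cells the median of Krt6a was 0 CPM in CON, 1037 CPM in UV and 559 CPM in Rux. Krt16, its usual partner, was at 396 CPM in CON, 234 in UV and 145 in Rux (−1.44 in Rux over CON), but the ratio was 1.83 with the threshold at 1% and 0.19 with the thinned choice. In single cells the median of Krt16 was 0 CPM in CON and in Rux, with 57 of 117 and 12 of 27 cells above it, and the highest CON cell had 7334 CPM. Krt17 was at 312 CPM in CON, 187 in UV and 103 in Rux (−1.59 in Rux over CON), but 1.16 with the thinned choice. The direction of Krt16 and Krt17 therefore hung on which cells were taken, and that of Krt6a did not, its ratio of Rux over CON lying between 2.44 and 4.17 in 11 alternatives.

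Genes of early differentiation were higher in Rux than in CON for 5 of 13 compared (6.46% of all genes were) and lower for none, with a median of 0.75. Calm4, a calmodulin-like protein of the differentiating epidermis, had 363 UMIs in CON, 49 in UV and 440 in Rux (263, 1147 and 940.1 CPM), a ratio of 1.84 (1.63 to 2.04) in Rux over CON. Sbsn, a secreted protein of the upper layers, had 112 UMIs in CON, 12 in UV and 193 in Rux (81.1, 281 and 412 CPM), a ratio of 2.34 (2.00 to 2.69). Krtdap was at 387 CPM in CON, 585 in UV and 855 in Rux (1.14). The Krtdap count rested in part on single cells, 1 cell giving 42.3% of it in Rux and 1 giving 38.1% in CON. Notch3, a Notch receptor, had 18, 1 and 13 UMIs (1.11), and Skint3, a gene of the Skint family, 8, 0 and 24 UMIs (3.09). Skint3 was compared only through Rux, and the other 4 higher genes were not. Of the 27 Rux cells, 23 lay above the CON median for Calm4 (106 CPM), 23 for Sbsn (0 CPM) and 15 for Krtdap (0 CPM). For Sbsn and Krtdap this means at least 1 UMI, which 43 and 42 of 117 CON cells also had. The Rux cells were deeper, with a median of 15160 UMIs against 10787 in CON, so these counts are not at equal depth. Notch1, the receptor that starts the suprabasal programme, had 117 UMIs in CON, 7 in UV and 94 in Rux (84.7, 164 and 201 CPM), with 1.25 (0.84 to 1.65) in Rux over CON, and its ligand gene Jag2 was lower at 135 CPM in CON, 93.7 in UV and 59.8 in Rux (−1.15). The transcription factors Ovol1 (113 CPM in CON, 234 in UV and 269 in Rux), Zfp750 (60.8 CPM in CON, 93.7 in UV and 135 in Rux) and Grhl3 (10.9 CPM in CON, 0 in UV and 36.3 in Rux) had ratios of 1.25, 1.15 and 1.74. Over the 11 alternatives the lowest ratio of Rux over CON, under 2-fold for each, was 0.47 for Krtdap, 0.20 for Notch3, 0.28 for Ovol1 and 0.95 for Zfp750. Leaving out cells whose Krt1 and Krt10 exceeded 10% of Krt5 and Krt14, which kept 105, 3 and 20 cells, left 6 early differentiation genes higher in Rux than in CON in place of 5. The number was 8 at a threshold of 1% and 3 at a minimum of 50 CPM.

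Targets of p53, the factor that responds to DNA damage, and inhibitors of cyclin-dependent kinases, taken as 1 list, were higher in Rux than in CON for 6 of 18 (6.46% of all genes were) and lower for none, with a median of 0.38. In UV over CON 10 of 18 were higher (24.4% of all genes), with a median of 1.15 against 0.19 over all genes. In Rux over UV 6 of 17 were lower and 2 higher (15.4% and 20.2% of all genes), with a median of −0.42 against −0.08. Cdkn1a, the inhibitor that stops the cell cycle, had 165 UMIs in CON, 13 in UV and 128 in Rux (119, 304 and 273 CPM), with 1.40 (0.41 to 2.16) in UV over CON and 1.20 (0.85 to 1.54) in Rux over CON. In the thinned choice both were under 2-fold, at 0.996 and 0.73. Trp53inp1, a p53-induced nuclear protein, was at 76.0 CPM in CON, 117 in UV and 201 in Rux (1.40 in Rux over CON), and Sesn2, which restrains mTOR signalling, at 36.9 CPM in CON, 46.8 in UV and 122 in Rux (1.72). Ccng1 had 23, 2 and 20 UMIs (1.36), and Zmat3 20, 0 and 14 UMIs (1.06). Over the 11 alternatives the lowest ratio of Rux over CON was under 2-fold at 0.66 for Trp53inp1, 0.95 for Ccng1 and 0.76 for Zmat3. Zmat3 was compared only through Rux. Of the 10 genes higher in UV, 2 had at most 2 UMIs there, and 1 of these, Bbc3 with 1 UMI, was compared only through UV. Without the cells with Krt1 and Krt10 above 10% of Krt5 and Krt14, 3 genes of the list in place of 6 were past 2-fold higher in Rux over CON.

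The other lists were compared in the same way in Rux over CON, where 6.46% of all genes were higher and 5.16% lower. Of 16 chemokine and cytokine genes 5 were higher and 1 lower in Rux than in CON. Il18, an inflammasome cytokine, had 19, 3 and 24 UMIs (1.89), and Il33, the alarmin, 161, 5 and 26 UMIs (−1.05, but as near 0 as −0.16 in 11 alternatives). Of 26 antioxidant genes 4 were higher and none lower, Gsto1 being at 129.6 CPM in CON, 422 in UV and 342 in Rux. Of 26 AP-1 and immediate-early genes 3 were higher, among them Dusp1 at 515 CPM in CON, 1007 in UV and 1062 in Rux. The Dusp1 ratio of 1.04 fell as low as 0.55 in 11 alternatives, under 2-fold. Jun (0.96) and Fos (0.47) stayed under 2-fold. None of 11 heat shock, 13 circadian or 16 cell cycle genes passed 2-fold in Rux over CON. Of 28 DNA repair genes 1 was higher and 2 lower, and of the lower ones Rpa1 was compared only through CON. Of 9 Notch genes 2 were higher and 3 lower, of 10 integrins and adhesion receptors 1 and 1, and of 9 EGF receptor and ligand genes, 12 TGF-beta and BMP genes and 14 Wnt genes 1 each was higher and none lower. Of these higher genes, 2 chemokines (Ccl20 and Cxcl2), the EGF receptor ligand Areg and the Wnt list member Sostdc1 were compared only through Rux. Of 6 metallothionein and zinc genes 1 was higher and 2 lower, with a median of −0.69, and of the lower ones Slc39a10 was compared only through CON. Mt1, a metallothionein, was at 3156 CPM in CON, 2997 in UV and 1722 in Rux (−0.87). Of the genes that signal to melanocytes, the 2 past 2-fold, Adm (adrenomedullin) and Edn1, were compared only through Rux. Edn1, the endothelin that keratinocytes send to melanocytes, had 20 UMIs in CON, 0 in UV and 62 in Rux, with 3.17 in Rux over CON, and 32.3% of the Rux UMIs came from 1 cell. Lmo7, a junction protein, was at 48.5 CPM in CON, 351 in UV and 327 in Rux (2.75). Orm1 (3.82) and Abca12 (2.12), an acute-phase protein and a lipid carrier of the barrier named after their values were seen, were also higher in Rux than in CON.

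**Figure D3:**
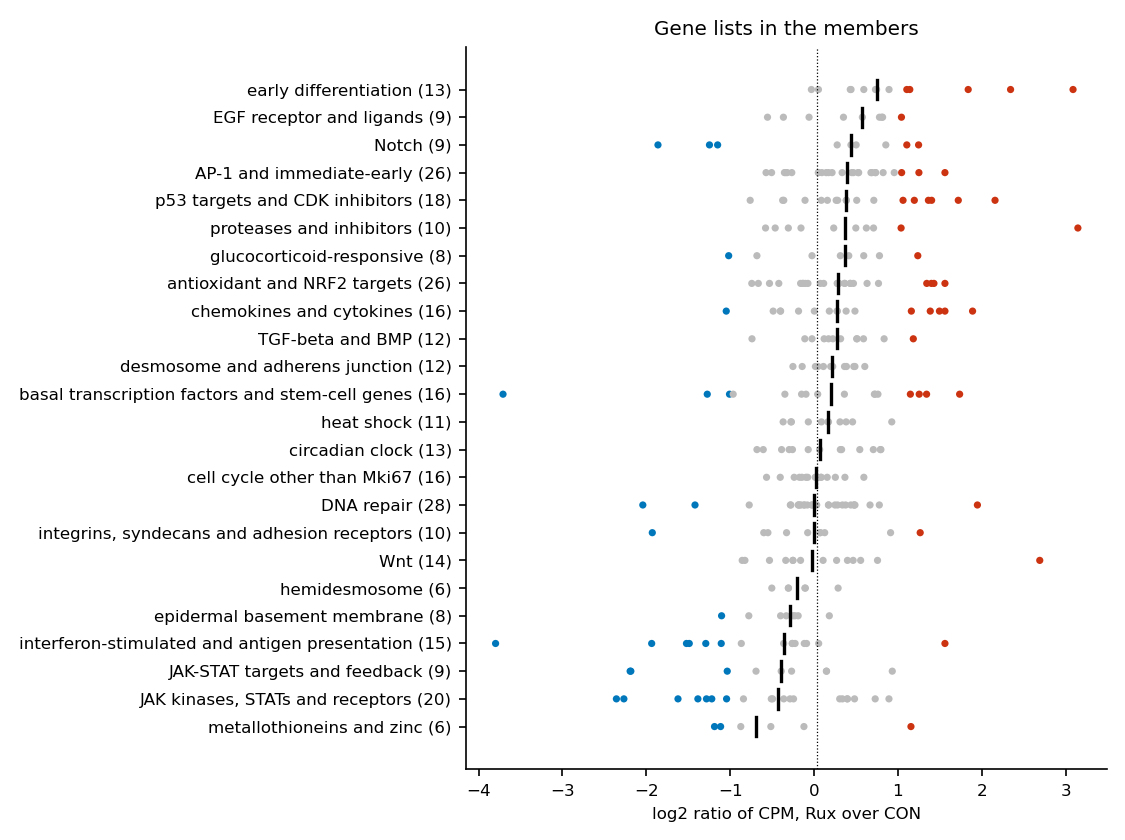
Log2 ratio of CPM in Rux over CON (x axis) for the compared genes of each gene list (y axis, number compared in brackets). Points are genes, coloured where past 2-fold; black bars are list medians and the dotted line is the median of all genes, 0.03, with early differentiation at 0.75 and JAK kinases, STATs and receptors at −0.43.

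The genes that differed most between UV and the other libraries often rested on 1 cell. Pros1, an anticoagulant protein, had 42, 14 and 29 UMIs, of which 13 of the 14 in UV came from 1 cell. For Stfa3, a stefin, it was 106 of 121 UMIs, and for Cstdc5, of the same family, 111 of 139. Ptprj, a receptor phosphatase, had 70, 19 and 24 UMIs, a ratio of 3.16 (2.32 to 3.88) in UV over CON, with 13 of the 19 UV UMIs from 1 cell and a ratio of 0.93 in the thinned choice. At the other end, genes without a UMI in UV gave lower bounds. Slco2a1, a prostaglandin transporter with 327 UMIs in CON, was at least 3.37-fold lower in UV, and Fgfr3, a growth factor receptor with 162, at least 1.67-fold lower. These bounds hold for the 4 UV cells chosen. In the thinned choice the log2 ratio of UV over CON was −1.86 for Slco2a1 and −0.31 for Fgfr3, and at a threshold of 0.5% it was −0.49 for Slco2a1.

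**Figure D4:**
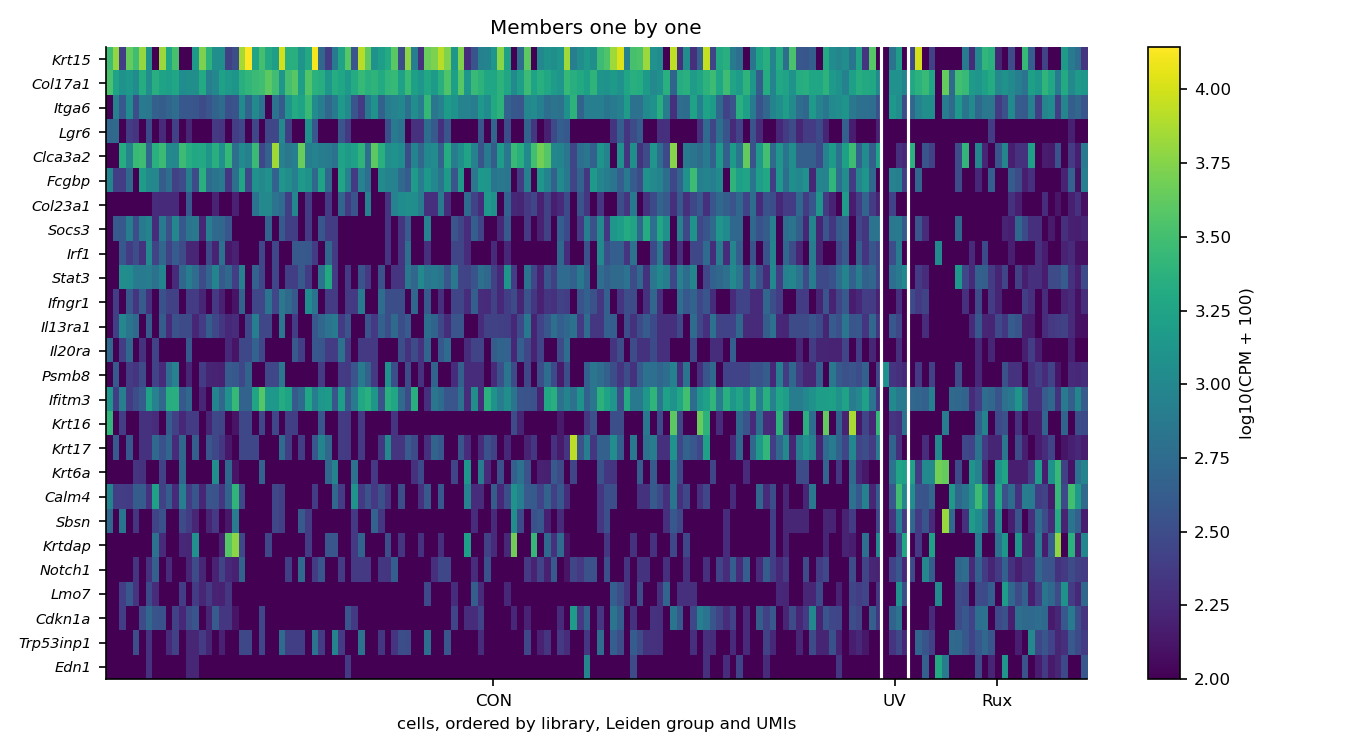
Each column is 1 of the 148 chosen cells, ordered by library, group and UMIs (x axis), and each row a gene (y axis); colour is log10(CPM + 100). Krt6a is bright in 3 of 4 UV cells, mixed in Rux, where the median cell had 559 CPM, and mostly dark in CON, and Socs3 is bright in stretches of CON cells.

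The cells left out only by the 8 excluded genes, 109 in CON, 56 in UV and 105 in Rux, gave the same genes from more UV molecules. There Socs3 was at 417, 291 and 49.1 CPM, Irf1 at 224, 189 and 53.1 CPM and Stat3 at 397, 355 and 169 CPM in CON, UV and Rux, so that UV lay between the others for all 3. Krt15 was at 2387, 781 and 615 CPM and Krt6a at 116, 1314 and 1179 CPM. Krt17 went the opposite way to the chosen cells, with 311, 1303 and 1613 CPM, and Krt16 was at 235, 642 and 541 CPM. These left-out cells were not of the same kind in each library, as Mki67 led among the excluded genes in CON and Sox9 in UV and Rux. Krt17 is itself an infundibulum marker, and those markers summed to 528, 1717 and 2122 CPM in them. In collagen-rich cells, which are not keratinocytes, Socs3 was at 497, 397 and 105 CPM and Irf1 at 491, 236 and 198 CPM. With 1 library per condition these differences between cell classes could not be tested, and the lower Socs3 of Rux was found in all 3 classes of cells.

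Clustering the 148 cells together, without the genes of the choice, gave 4 groups, left unnamed here. Leading genes of group 0 were Krt77, Ly6g6c, Mt4, Krtdap and Krt1, of group 1 Gna14, Col4a5 and Lrp4, of group 2 Krt16, Krt17 and Il33, and of group 3 Orm1, Lmo7, Edn1, Sbsn, Abca12 and Krt6a. Suprabasal markers summed to 4856 CPM in group 0, 1717 in group 1, 394 in group 2 and 4380 in group 3, with basal markers at 28192, 30820, 29995 and 30480 CPM. Groups 0, 1 and 2 held 20, 50 and 45 of the 117 CON cells, and group 3 held 23 of 27 Rux cells, 2 of 4 UV cells and 2 CON cells. Group 3 was thus nearly that of 1 library, and the group and the library cannot be told apart. The other Rux cells, 4 in number, lay in group 1, where 50 CON cells also lay. Resolution changed the number, with 2 groups at 0.3 and 7 at 1.0.

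The CON groups themselves differed in JAK-STAT genes. Socs3 was at 385 CPM (314 to 467) in CON group 0, 117 CPM (89.9 to 150.4) in group 1 and 505 CPM (448 to 568) in group 2, against 71.7 CPM (48.7 to 102) in Rux group 3. The Rux interval thus overlapped that of CON group 1 and lay under those of groups 0 and 2. In group 1, which held 50 CON and 4 Rux cells, Socs3 was at 83.5 CPM (17.2 to 244) in the 4 Rux cells, from 3 UMIs, an interval that held the CON level, and these cells had 2 UMIs of Stat3 (55.7 CPM, 6.74 to 201.1) and 0 of Irf1, which allows up to 83.5 CPM of it. Irf1 was at 185, 77.6 and 225 CPM in the CON groups and at 37.0 CPM in Rux group 3, and Stat3 at 437, 331 and 464 CPM against 162 CPM in Rux group 3. Fos, at 1493, 961 and 2322 CPM, and Jun, at 811, 348 and 1477 CPM, followed the same order in the CON groups. In Rux group 3 they were at 2425 and 1916 CPM. Infundibulum markers, over all libraries, summed to 398, 239 and 817 CPM in groups 0, 1 and 2. Krt15 was highest in CON group 1, at 2797 CPM, and the 4 Rux cells of that group had 2199 CPM against 574 CPM in Rux group 3. That Rux level rested on 1 cell at 10088 CPM, the others being at 0, 166 and 203 CPM, below the level of Rux group 3. Krt6a was at 147, 146 and 88.1 CPM in the CON groups and at 662 CPM in Rux group 3, with 863 CPM in the Rux cells of group 1. Krt17 and Krt16 were at 557 and 823 CPM in CON group 2 against 127 and 32.2 CPM in group 1. The Krt16 of CON group 2 came largely from a few cells, the highest at 7334 CPM, and many cells of that group had none. The makeup of the libraries by group moved with these differences, and its part in them was not tested.

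**Figure D5:**
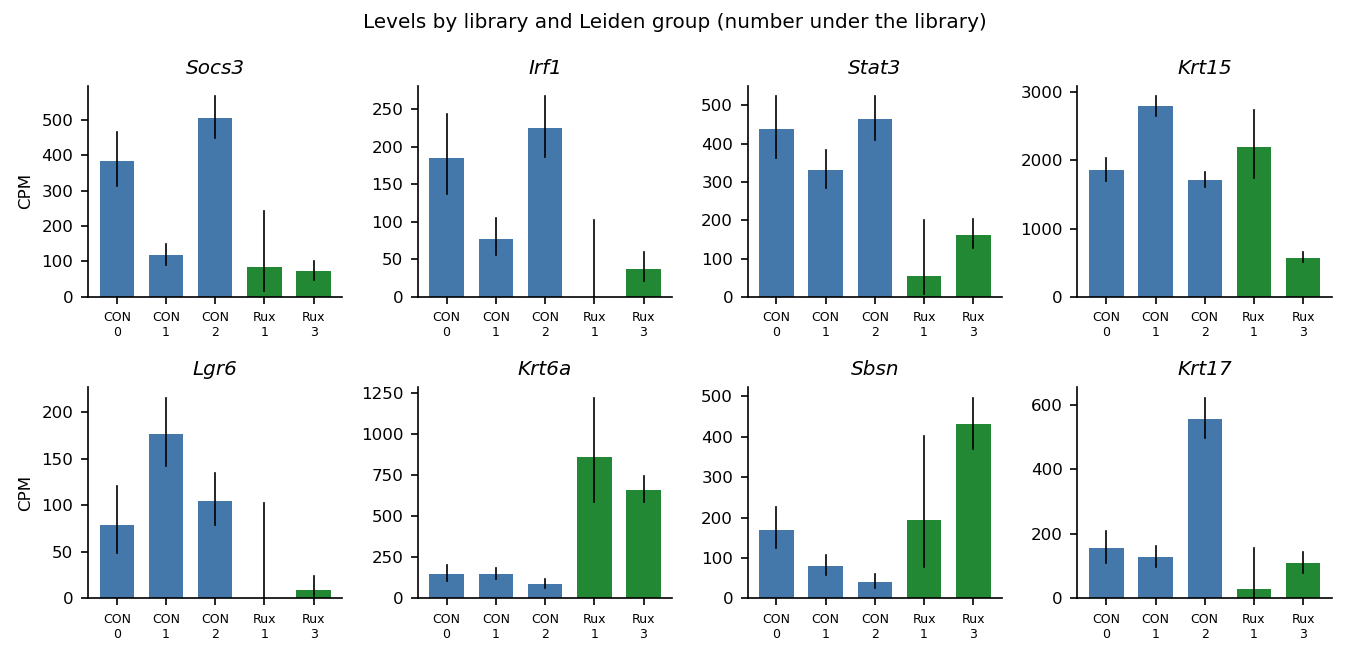
Level of 8 genes (y axis, CPM, from 0) in the chosen cells by library and cluster number (x axis), with exact 95% Poisson intervals as bars; combinations of under 4 cells are not drawn. Socs3 differs between the CON groups from 117 to 505 CPM, and Krt6a is higher in both Rux groups than in any CON group.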

How the data were processed

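Full-thickness dorsal skin was dissociated and loaded on the 10x Genomics Chromium with 3' chemistry, 1 library per condition. The authors deposited raw UMI counts per gene and cell, not normalized, aligned to mm10. The methods name Cell Ranger 6.1.2 and the matrix headers 7.0.0, and Seurat 5.3.0 served the study's own analysis, not used here. Each of the 3 matrices held 32285 genes, 32235 of which had coordinates in GENCODE M21 (GRCm38). No sample was left out, and some genes are not reported here.

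Cells were chosen as described above and their counts summed per library. Log2 ratios of CPM had 0.5 UMI added to each sum. A gene was compared when it averaged 10 CPM or more over the 3 libraries and had 10 or more UMIs in the pair. Intervals were exact (Poisson for sums, binomial for ratios of sums, Clopper-Pearson for shares). The count of a 0 was bounded at 3 UMIs. No p-value was computed, as cells of 1 library are not replicates. The genes named were the 12 highest and 12 lowest ratios in each of the 3 comparisons, Rux over CON included, with at least 50 CPM and 50 UMIs. A gene named in this way had to be extreme in that comparison. Members of gene lists past 2-fold or most abundant were also named. A few of the named genes are described in the text. The cells and lists were chosen with earlier results of these data known. Groups among the cells came from Leiden clustering at resolution 0.5 on 2000 variable genes and 20 principal components, without the genes of the choice or batch correction. Doublets were not removed, except in an alternative with Scrublet. The alternatives also changed the filter on cells, the threshold, the depth, the scaling and the minimum. The ratio and interval code was tested on simulated data. Python 3.11.15 with numpy 2.4.6, scipy 1.17.1, pandas 2.3.3, scanpy 1.11.5 and matplotlib 3.10.9 was used.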

Additional observations from a re-analysis of the deposited data

How the results depend on the processing

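No paired analysis was possible because each condition had 1 library, and no library could be left out. Depth limits UV most, where a gene needs 70.3 CPM to reach 3 UMIs. The number of chosen cells moved with the choice, to 209, 24 and 67 in CON, UV and Rux with the rule on cells thinned to 2000 UMIs, to 274 in CON and 9 in UV at 1%, to 348 and 21 at 0.5%, and to 14, 1 and 2 without cells that had any UMI of further follicle genes. The last set held under 10000 UMIs in UV and Rux and gave no gene values, a minimum set after seeing the data. At 4% no cell was left, and an alternative weighted by cluster makeup was not run for want of UV and Rux cells. The thinned choice gave 610 genes higher and 396 lower in UV over CON, 267 and 234 in Rux over UV, and 232 lower in Rux over CON. It kept 185 of the 451 genes higher and 124 of the 336 lower in Rux over CON that were compared in both, 221 of 1584 higher and 170 of 1180 lower in UV over CON, and 64 of 1228 higher and 36 of 939 lower in Rux over UV. A minimum of 50 CPM gave 574 higher and 298 lower in UV over CON, 317 and 497 in Rux over UV, and 133 and 60 in Rux over CON. No CPM minimum gave 751 and 740 in Rux over CON. At 0.5%, 743 genes were lower in UV than CON, 816 higher in Rux than UV and 591 lower in Rux than CON, and median-of-ratios scaling left 584 lower in Rux than UV. In Rux over CON, the lower JAK kinases, STATs and receptors numbered 4 at 50 CPM, the lower pathway targets 6 at 0.5%, the lower interferon genes 11 without a minimum, the higher early differentiation genes 8 at 1% and 3 at 50 CPM, and the higher p53 targets and kinase inhibitors 3 without cells with Krt1 and Krt10 above 10% of Krt5 and Krt14. The causes were not tested. The thresholds of 1% and 0.5%, leaving out the deepest cells and leaving out cells with Krt1 and Krt10 were chosen after seeing the data. Counting each of the 76 genes named once under each alternative, 4 log2 ratios turned sign in Rux over CON, 7 in Rux over UV and 7 in UV over CON, of genes past 2-fold. In Rux over CON these were Krt16 at 0.19 (thinned), 1.83 (1%) and 2.06 (0.5%), and Krt17 at 1.16 (thinned). In Rux over UV the thinned choice turned Sesn2 (−0.14), Fcgbp (0.28), Col23a1 (0.64) and Skint3 (−0.70), the threshold of 0.5% turned Trp63 (−0.67) and Slco2a1 (−0.57), and leaving out the deepest cell of each library turned Col23a1 (0.56). In UV over CON the thinned choice turned Tcim (0.27), Trps1 (1.83) and Irgm1 (−0.81), the threshold of 0.5% turned Ovol1 (−0.021) and Notch3 (−0.21), and leaving out cells with Krt1 and Krt10 turned Ccng1 (−0.27) and Irgm1 (−0.14). Over the 11 alternatives the ratio of Rux over CON ran from −2.75 to −1.92 for Socs3, from −2.29 to −1.38 for Irf1, from −1.47 to −1.26 for Stat3, from −2.29 to −1.42 for Krt15 and from −4.15 to −3.51 for Lgr6.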
